A study of Canis lupus familiaris with 33 samples.

Results

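The 7 canine diffuse large B cell lymphomas (DLBCL) with the most MYC transcript were set against the 7 with the least. All 23 DLBCL arrays of the series were ranked by the log2 level of the MYC probeset, and the 14 arrays at the ends of that order were taken, out of 33 arrays in all. The members were thus chosen by their measured MYC level. MYC therefore differed between the groups by construction, and its levels are given as a description with no test. Apart from MYC itself, no probeset on the array differed between MYC-high and MYC-low tumours after adjustment over all probesets.

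MYC is a transcription factor that binds DNA as a heterodimer with MAX and drives genes of ribosome assembly, nucleotide synthesis and cell growth. The MXD proteins and MNT also pair with MAX and oppose it. In lymphomas MYC can be raised by translocation, by gain of copies or by signalling to its promoter, and a transcript level does not tell these apart. Neither copy number nor translocation was measured here.

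The samples were lymph node biopsies hybridised to Affymetrix canine arrays, 1 array a sample, with values on the log2 scale after RMA normalization. The MYC-high group held 6 tumours from untreated (naive) dogs and 1 from a dog that had relapsed after chemotherapy, aged 2.7 to 13.3 years. The MYC-low group held 4 naive and 3 relapsed tumours from dogs aged 5.9 to 12.6 years. The healthy reference was 10 node arrays from 7 dogs, 4 of them from 1 dog, with RIN values (RNA integrity number) of 5.8 to 9.4, and arrays of 1 dog were averaged. The 14 tumours of the 2 groups were from different dogs. Each biopsy was measured as bulk tissue, so that fewer cells of a type and less RNA per cell cannot be told apart.

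MYC was at 11.86, 12.11 and 12.38 (lowest, median and highest log2 value) in MYC-high tumours and at 9.50, 10.47 and 10.84 in MYC-low tumours. The group means differed by 1.69 on the log2 scale, a 3.22-fold difference. The last tumour inside the MYC-high group was at 11.86 and the first outside it at 11.71, while the first inside the MYC-low group was at 10.84 and the nearest outside it at 10.97. No gap marked either boundary. The 7 healthy dogs were at 10.07 to 10.47, inside the range of the MYC-low tumours and below every MYC-high tumour. A single probeset reports MYC on this array.

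**Figure D1:**
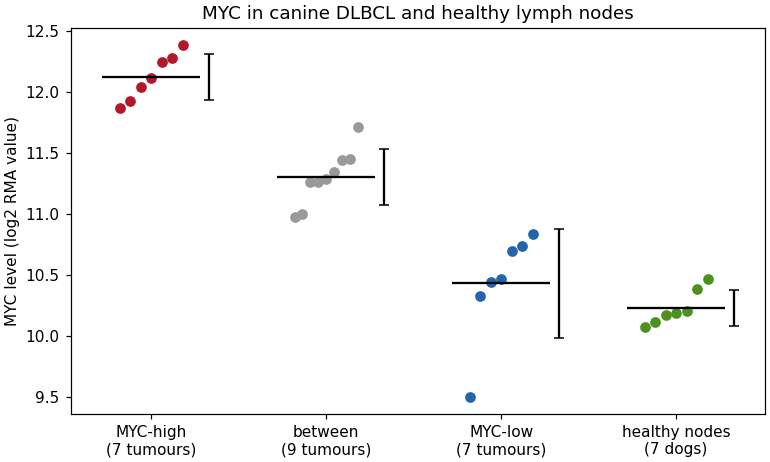
MYC level (log2 RMA value, vertical axis) in the 7 MYC-high tumours, the 9 tumours between them, the 7 MYC-low tumours and the 7 healthy dogs. Points are tumours or dogs, lines are means and bars are 1 SD. The MYC-low tumours, at 9.50 to 10.84, span the healthy range of 10.07 to 10.47.

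RNA quality, age and earlier treatment did not differ past the threshold of their tests. RIN averaged 9.69 ± 0.37 in MYC-high and 9.67 ± 0.34 in MYC-low tumours (SD, n = 7 each, exact two-sided permutation p = 1 over 3432 splits). Age averaged 8.37 ± 3.80 years in MYC-high and 8.77 ± 2.25 years in MYC-low dogs (SD, n = 7 each, exact permutation p = 0.815). Relapsed tumours were 1 of 7 and 3 of 7 (Fisher's exact p = 0.559). Adjusted over these 3 tests, each p was 1. The day of the array was known for 11 of the 14 arrays, and among these day 3 held MYC-low tumours alone, whose part in the results was not tested beyond a fit with day as a covariate.

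2 of the MYC-low arrays, samples 5 and 18, had the lowest correlation with the other tumours over all probesets. Their median correlation with the other DLBCL arrays was 0.951 and 0.961, against 0.965 to 0.982 for the other 21. The next lowest was sample 21, also MYC-low, at 0.965, followed by sample 20 at 0.970. The cut after sample 18 was thus a choice. Sample 5 was also low in several B cell markers. MS4A1, the gene of the CD20 surface antigen, was at 8.51 in sample 5 and at 12.57 to 13.63 in the 12 arrays other than samples 5 and 18. CD79B, a chain of the B cell receptor complex, was at 8.04 in sample 5 against 11.52 to 12.82. CD79A, another chain of it, was at 10.88 against 12.72 to 13.37. MPO, the myeloperoxidase of neutrophils, was at 10.79 in sample 5 against 6.03 to 7.93. PAX5, the B cell transcription factor, was at 6.14 in sample 5, inside the 5.66 to 6.34 of those 12 arrays. These PAX5 values all lay below the lowest array median, 6.85, so this dim probeset says little about B cell content. In sample 18, MS4A1 was at 13.86 and CD79B at 12.69. Sample 5 also had the least MYC of the 23 tumours, at 9.50, with the next at 10.33. Leaving it out thus also removes the low end of the MYC order, and these roles cannot be told apart. The medians of the gene lists below are therefore given with and without these 2 arrays.

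Of 43034 probesets other than MYC, limma called 0 higher and 0 lower in MYC-high tumours at an adjusted p under 0.05 (0.0% in each direction). The smallest adjusted p was 0.960. At an unadjusted p under 0.05, 1092 were higher (2.54% of the probesets) and 834 lower (1.94%), 4.48% together. The median standard error of a difference was 0.143 on the log2 scale. No other setting of the fit called a probeset either, and with log2 MYC as a continuous covariate over the 23 tumours 2120 probesets were positive and 2170 negative at an unadjusted p under 0.05, with a smallest adjusted p of 0.221. That larger count rested on samples 5 and 18, and sample 5 had the least MYC of the 23 tumours. Without samples 5 and 18 the count was 878 positive and 1042 negative. Samples 11 and 12 came from the same dog and both entered the fits of all 23 tumours. Without sample 12 the continuous fit had 2063 positive and 2119 negative probesets at an unadjusted p under 0.05, and 0 after adjustment. A p that misses the threshold does not show that values were the same.

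Read gene by gene, from the brightest probeset of each, 337 of 15114 genes (2.23%) were higher and 303 (2.0%) lower at an unadjusted p under 0.05. The mean was higher in MYC-high tumours for 49.3% of the genes. In 1 gene every MYC-high array was above every MYC-low array (0.00662%), and in 2 genes every MYC-high array was below (0.0132%). The first was PUS7L, and the others were COX6A2 and DUSP13. DUSP13, a phosphatase gene named here after its values were seen, was at 5.55 to 5.90 in MYC-high and 5.91 to 6.56 in MYC-low tumours. These DUSP13 values all lay below the lowest array median, 6.85.

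The genes of smallest p are described next, none of which passed the adjusted threshold (adjusted p = 0.960 for each, limma). PUS7L, a relative of the RNA pseudouridine synthases, was at 8.44, 8.66 and 8.998 in MYC-high tumours (lowest, median, highest) and at 7.47, 7.96 and 8.41 in MYC-low tumours. The difference was 0.77 ± 0.14 on the log2 scale (SE), a 1.71-fold difference, and the groups did not overlap. The 9 tumours between the groups had a PUS7L median of 8.14, and the healthy median was 7.52. PKHD1, known for polycystic kidney disease, was at 8.58, 8.78 and 9.84 in MYC-high tumours and at 5.69, 6.26 and 9.25 in MYC-low tumours. It had the widest difference of these genes, 2.14 ± 0.51, and 3 of the 7 MYC-high arrays lay above the whole MYC-low range. PKHD1 did not follow the MYC order beyond the 2 groups, since the tumours between them had a median of 9.61. MBTPS2, a protease that releases membrane-bound transcription factors in sterol regulation, differed by 0.42 ± 0.11, with 6 of 7 MYC-high arrays above the MYC-low range. The other genes with higher means were CHRNA1 (0.56 ± 0.14), TMEM18 (0.70 ± 0.18), CDKL3 (1.01 ± 0.25), PACRGL (0.60 ± 0.16) and MCCD1 (0.41 ± 0.11). The probeset of CHRNA1 was dim, below the lowest array median of 6.85 in every tumour of both groups.

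TIPARP is an enzyme of the PARP family that is induced through the aryl hydrocarbon receptor. It was at 6.06, 6.38 and 7.26 in MYC-high tumours and at 6.62, 8.03 and 8.99 in MYC-low tumours. The difference was -1.37 ± 0.33, and 5 of the 7 MYC-high arrays lay below the MYC-low range. The tumours between the groups had a TIPARP median of 6.49, close to that of the MYC-high tumours. COMP, a matrix protein of cartilage and tendon, was at 7.39, 7.87 and 8.15 in MYC-high tumours and at 7.71, 9.76 and 10.88 in MYC-low tumours. Its difference was -1.56 ± 0.42, and only 1 MYC-high array lay below the MYC-low range. COX6A2, the muscle form of a cytochrome c oxidase subunit, was at 6.04 to 6.64 in MYC-high tumours and at 6.67 to 7.72 in MYC-low tumours. The remaining genes with lower means were LLGL1 (-0.54 ± 0.14), GSTO2 (-0.39 ± 0.10), CYP46A1 (-0.61 ± 0.16) and DNAI1 (-0.35 ± 0.09). The probesets of LLGL1, GSTO2 and DNAI1 were dim, below the lowest array median of 6.85 in every tumour of both groups. STON2 was also among the genes of smallest p, at 3.30 to 3.88 in MYC-high and 3.78 to 4.55 in MYC-low tumours. Both ranges lay below the highest mean of the array's tag control probesets, 4.56 (their median was 3.53), so no difference is given for it.

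**Figure D2:**
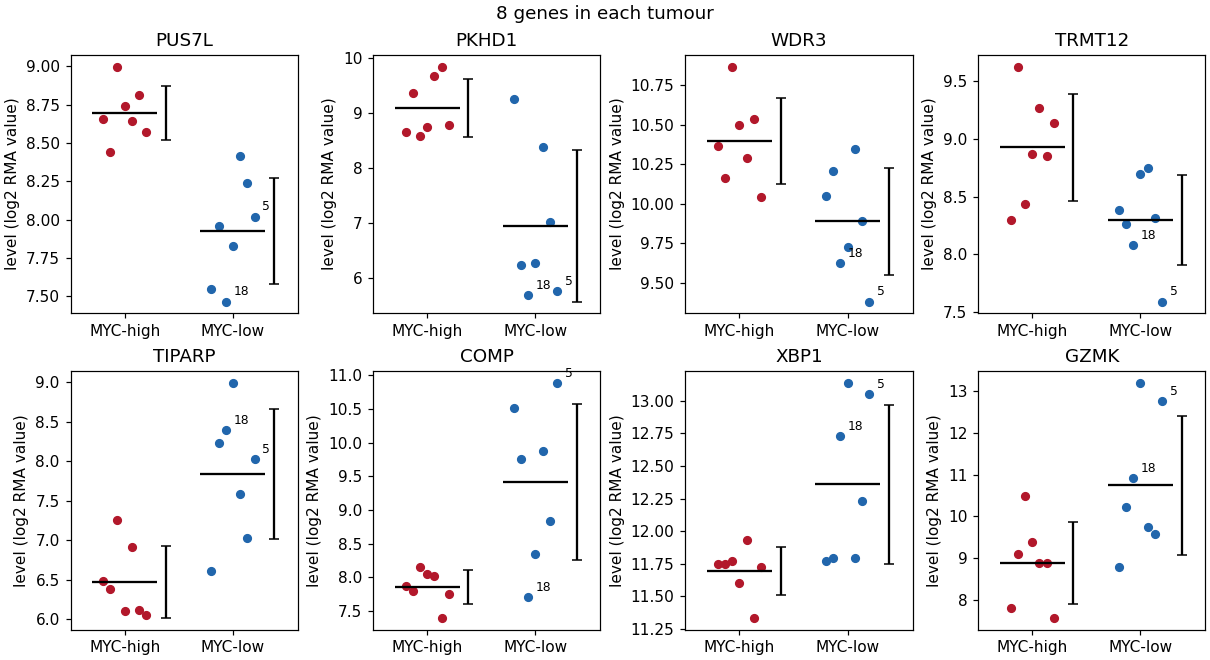
Level (log2 RMA value, vertical axis) of 8 genes in the 7 MYC-high and the 7 MYC-low tumours, with samples 5 and 18 numbered. Points are tumours, lines are means and bars are 1 SD. The groups do not overlap for PUS7L and overlap for the other 7 genes.

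The list of MYC partners was nearly level. It also held relatives of MYC (MYCN, MYCL) and other genes tied to it, such as FBXW7, SKP2, USP28, PIM1 and MYCT1. Of 31 measured genes of the list, 21 had a higher and 10 a lower mean in MYC-high tumours. The median difference was 0.03 against -0.003 over all genes, and the groups overlapped for every listed gene. Without samples 5 and 18, 15 were higher and 16 lower, with a median of -0.02. Leaving out sample 18 alone gave 0.0002, and sample 1 alone -0.002. MAX was at 12.91, 13.08 and 13.22 in MYC-high tumours and at 12.83, 13.00 and 13.19 in MYC-low tumours, a difference of 0.05 ± 0.08. Among the antagonists, MXI1 differed by 0.25 ± 0.27, and by 0.05 without sample 5. MXD1 differed by 0.009, MNT by 0.01, MXD3 by -0.11 and MXD4 by -0.08. The relative MYCN was at 6.12 to 7.40 in MYC-high tumours and at 4.96 to 10.46 in MYC-low tumours, a difference of -0.47 ± 0.62 that was 0.08 without sample 5. The 1 partner of 31 with an unadjusted p under 0.05, against 2.23% of all genes higher, was TRRAP, the scaffold of histone acetyltransferase complexes that MYC recruits, at 9.18, 9.61 and 9.96 in MYC-high tumours and 8.99, 9.30 and 9.54 in MYC-low tumours (0.30 ± 0.13, limma adjusted p = 0.960). EP400, of the same machinery, differed by 0.16 ± 0.08 and the acetyltransferase KAT2A by 0.36 ± 0.20 (0.23 without sample 5).

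Known targets of MYC were higher in MYC-high tumours on balance, but this rested on 2 arrays, samples 5 and 18. Sample 5 was the tumour with the least MYC. Of 51 measured targets 41 had a higher mean (80.4%), and their median difference was 0.11. Without samples 5 and 18 it was 19 of 51, and the median was -0.03. Without sample 5 alone the median was 0.06, and without sample 18 alone 0.05. The mean level of the list was 10.34 to 10.81 in MYC-high and 10.06 to 10.75 in MYC-low tumours, so that the groups overlapped, and it was 9.71 to 10.09 in healthy dogs. The MYC-low tumours other than samples 5 and 18 were at 10.50 to 10.75. PUS1, a pseudouridine synthase, was at 8.58, 9.64 and 10.30 in MYC-high tumours and at 7.85, 8.89 and 9.33 in MYC-low tumours (0.76 ± 0.30). EXOSC5, of the RNA exosome, differed by 0.56 ± 0.21, WDR74 by 0.38 ± 0.17 and the helicase DDX18 by 0.32 ± 0.16. Without samples 5 and 18 PUS1 differed by 0.49, EXOSC5 by 0.27, WDR74 by 0.17 and DDX18 by 0.27. Nucleolin (NCL), an abundant nucleolar protein often used as a MYC target, differed by 0.14 ± 0.12 (0.06 without sample 5). 3 of the 51 genes were higher at an unadjusted p under 0.05 and 0 lower, against 2.23% and 2.0% of all genes.

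Genes of rRNA synthesis and ribosome assembly had the same form. 68 of 71 had a higher mean in MYC-high tumours, with a median difference of 0.17, and 40 of 71 without samples 5 and 18, with a median of 0.02. The median was 0.09 without sample 5 alone and 0.11 without sample 18 alone. Sample 5 was at 10.13 and sample 18 at 10.25 in the mean of the list, against 10.73 to 10.80 in the 5 other MYC-low tumours and 10.66 to 10.91 in MYC-high tumours. The healthy dogs were at 10.00 to 10.33, so these 2 arrays lay within the healthy range for this list. WDR3, a component of the small-subunit processome, was at 10.04, 10.37 and 10.87 in MYC-high tumours and at 9.38, 9.89 and 10.34 in MYC-low tumours (0.51 ± 0.16). NLE1 differed by 0.49 ± 0.21, UTP23 by 0.30 ± 0.13 and CEBPZ by 0.23 ± 0.10. Without samples 5 and 18 WDR3 differed by 0.35, NLE1 by 0.29, UTP23 by 0.23 and CEBPZ by 0.11. Over all 14 arrays, 4 of the 71 genes were higher at an unadjusted p under 0.05, against 2.23% of all genes. The ribosomal proteins, at 13.94 to 14.03 in MYC-high and 13.81 to 14.03 in MYC-low tumours, had a median difference of 0.03, and of 0.02 without samples 5 and 18.

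Other growth lists were small in difference. Nucleotide synthesis had a median difference of 0.07 over 33 genes, and -0.09 without samples 5 and 18. PPAT, the first enzyme of purine synthesis, differed by 0.61 ± 0.25 and RRM2B, a subunit of ribonucleotide reductase, by 0.78 ± 0.27. Without samples 5 and 18 PPAT differed by 0.30 and RRM2B by 0.81. PFKL, the liver-type phosphofructokinase, differed by 0.90 ± 0.37, and by 0.55 without samples 5 and 18. The 30 genes of glycolysis and glutamine use had a median of -0.05 (-0.06 without samples 5 and 18). ODC1, which makes the first polyamine and is a classical MYC target, was at 12.60, 12.93 and 13.85 in MYC-high tumours and at 11.94, 12.54 and 13.75 in MYC-low tumours (0.27 ± 0.28, and 0.12 without sample 1). DNA replication had a median of 0.07 over 43 genes and -0.10 without the 2 arrays. Genes of mitosis had lower means in MYC-high tumours, in 25 of 32 genes with a median of -0.16, and in 30 of 32 with a median of -0.41 without samples 5 and 18. Without the MYC-high sample 9 the median was -0.009. KIF2C, a spindle motor, differed by -0.52 ± 0.37 (-0.33 without sample 21) and AURKB, a mitotic kinase, by -0.28 ± 0.22 (-0.11 without sample 9), and none of the 32 had an unadjusted p under 0.05.

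Of 19 genes that MYC is known to repress, 15 had a lower mean in MYC-high tumours, with a median of -0.20, and the median was -0.02 without samples 5 and 18 and -0.06 without sample 18 alone. FTH1, the ferritin heavy chain, has near-identical copies in mammalian genomes, so its probeset is uncertain. It was at 7.93, 8.15 and 8.54 in MYC-high tumours and at 8.41, 8.57 and 9.62 in MYC-low tumours (-0.49 ± 0.17), with 5 of the 7 MYC-high arrays below the MYC-low range. Cyclin D1 (CCND1) differed by -0.79 ± 0.38, and by -0.45 without sample 21, which had the highest value.

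**Figure D3:**
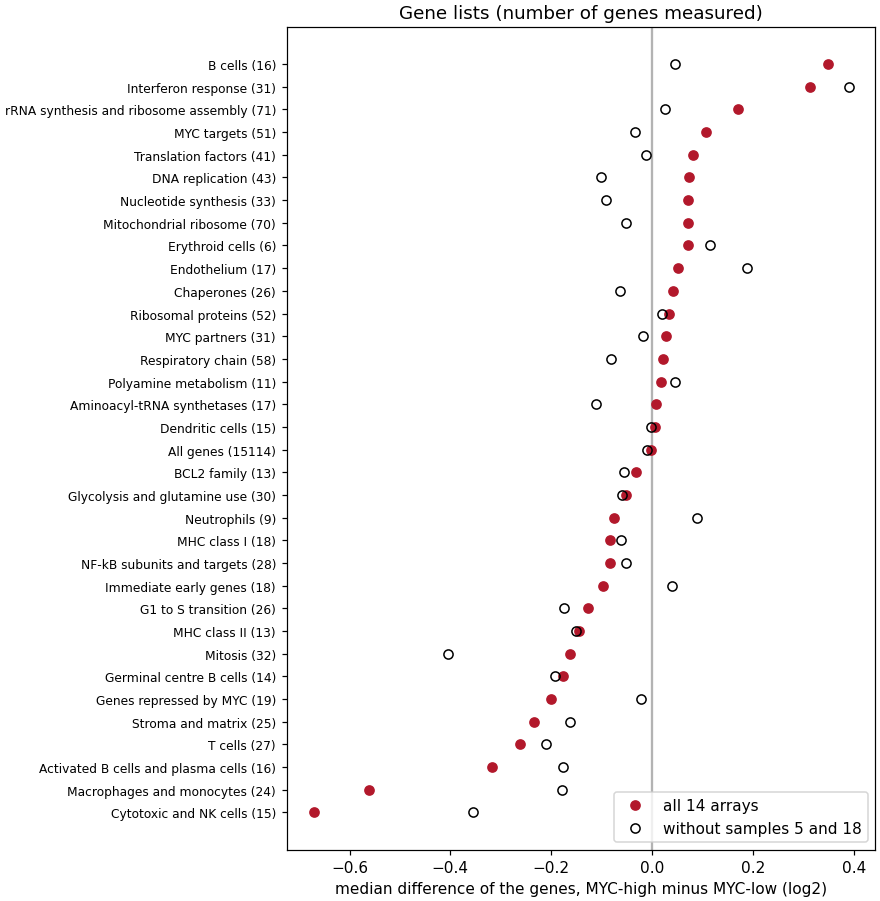
Median difference of the genes of each list between MYC-high and MYC-low tumours (log2, horizontal axis), over all 14 arrays (filled) and without samples 5 and 18 (open), with the number of genes measured in brackets. The median of MYC targets is 0.11 with and -0.03 without these 2 arrays, and that of all genes is near 0 in both.

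Over all 14 arrays the 2 widest list differences were in markers of cytotoxic cells and macrophages, while without samples 5 and 18 mitosis (-0.41) and the interferon response (0.39) were wider. Markers of cytotoxic and NK cells had a lower mean in MYC-high tumours in 12 of 15 genes, with a median of -0.67 (-0.35 without samples 5 and 18), and 4 were lower at an unadjusted p under 0.05, against 2.0% of all genes. GZMK, a granzyme, was at 7.56, 8.89 and 10.50 in MYC-high tumours and at 8.78, 10.21 and 13.19 in MYC-low tumours (-1.87 ± 0.67). The chemokine CCL5 differed by -1.49 ± 0.58, the granule gene NKG7 by -1.58 ± 0.64 and the transcription factor EOMES by -1.36 ± 0.52. Without samples 5 and 18 GZMK differed by -1.43, CCL5 by -0.91, NKG7 by -1.10 and EOMES by -1.08. None of these 4 then had an unadjusted p under 0.05. The list mean was 6.66 to 7.94 in MYC-high and 7.08 to 9.21 in MYC-low tumours, with samples 5 and 21 highest, and 8.14 to 8.75 in healthy dogs. GZMK had a median of 11.10 in the tumours between the groups, above that of either group. Without sample 21 the median was -0.38. T cell markers had lower means in 24 of 27 genes, with a median of -0.26, and in 18 of 27 with a median of -0.21 without samples 5 and 18. With array day in the fit, over the 11 arrays with a known day, sample 5 not among them, the median turned to 0.05. Their level was 7.18 to 7.93 in MYC-high and 7.09 to 8.62 in MYC-low tumours. SH2D1A, an adaptor of T and NK cells, differed by -1.08 ± 0.46, and by -0.81 without samples 5 and 18.

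Macrophage and monocyte markers had lower means in 21 of 24 genes, with a median of -0.56, which was -0.18 without samples 5 and 18 and -0.32 without sample 5 alone. With array day in the fit, over the 11 arrays with a known day, the median was -0.03. Sample 5 was not among those arrays, so the part of day cannot be told from that of the arrays left out. VSIG4, a complement receptor of tissue macrophages, was at 6.54, 6.92 and 7.79 in MYC-high tumours and at 7.27, 7.75 and 8.66 in MYC-low tumours (-0.67 ± 0.23). The receptor gene CSF1R differed by -0.61 ± 0.26. Without samples 5 and 18 VSIG4 differed by -0.46 and CSF1R by -0.36. Stroma and matrix genes had a median of -0.23 (-0.16 without samples 5 and 18, -0.11 without sample 18 and -0.45 without sample 21). BGN differed by -0.80 ± 0.36 and fibronectin (FN1) by -0.65 ± 0.30. Without samples 5 and 18 BGN differed by -0.55 and FN1 by -0.47. B cell markers had a higher mean in 15 of 16 genes, with a median of 0.35, which was 0.006 without sample 5 alone. Whether the cell makeup of the nodes has a part in the other differences was not tested.

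**Figure D4:**
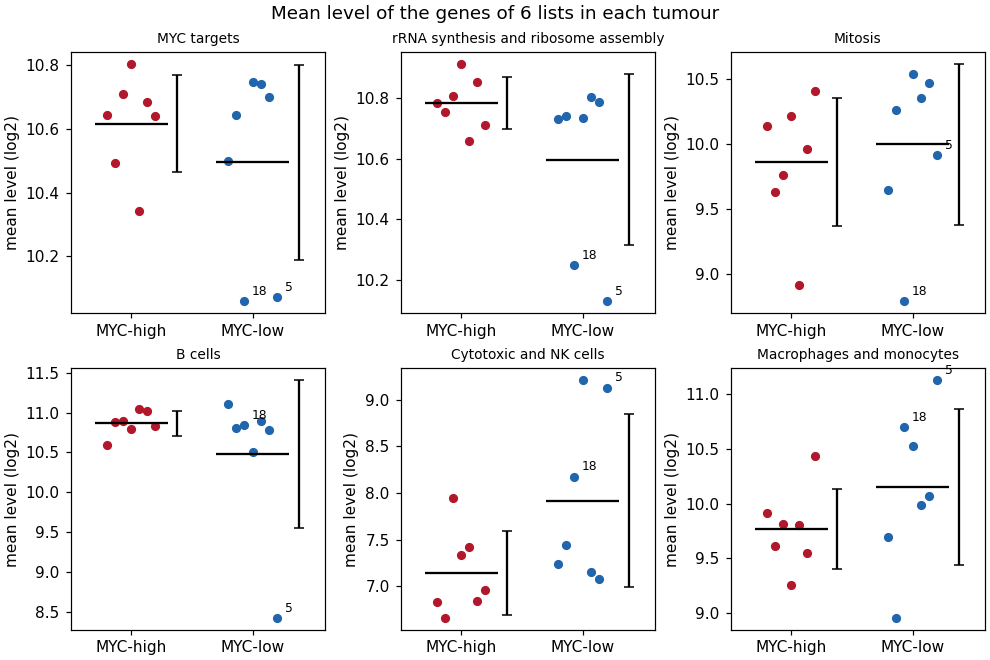
Mean level of the genes of 6 lists (log2, vertical axis) in the 7 MYC-high and the 7 MYC-low tumours, with samples 5 and 18 numbered. Points are tumours, lines are means and bars are 1 SD. The groups overlap in all 6 lists, and sample 5 is at 8.42 for B cells, against 10.59 to 11.04 in MYC-high tumours.

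XBP1 is a transcription factor of plasma cells and of the unfolded protein response. It was at 11.33, 11.74 and 11.93 in MYC-high tumours and at 11.77, 12.23 and 13.14 in MYC-low tumours (-0.67 ± 0.23). For XBP1 6 of the 7 MYC-high arrays lay below the MYC-low range, and its difference was -0.45 without samples 5 and 18. Its list, 16 genes of activated B cells and plasma cells, had a median of -0.32 (-0.18 without samples 5 and 18). The protein disulfide isomerase PDIA3 was at 12.82, 13.18 and 13.38 in MYC-high tumours and at 13.22, 13.58 and 13.74 in MYC-low tumours (-0.35 ± 0.11). Of 26 chaperone genes 15 had a higher mean in MYC-high tumours, with a median of 0.04 (-0.06 without samples 5 and 18). The 2 lower at an unadjusted p under 0.05 (2.0% of all genes were), HSPA5 and HSP90B1 of the endoplasmic reticulum, differed by -0.30 ± 0.13 and -0.22 ± 0.09. DLA-64, one of the near-identical class I genes, differed by -0.80 ± 0.29, the largest fall in the list of MHC class I genes. Of the 18 genes of that list, PDIA3 among them, 14 had a lower mean and 4 a higher one. Their median was -0.08 (-0.06 without samples 5 and 18). Interferon response genes had a median of 0.31 over 31 genes, with no member at an unadjusted p under 0.05. The median was 0.39 without samples 5 and 18, 0.03 without sample 15 or 0.69 without sample 22. Their list mean was 8.35 to 10.80 in MYC-high and 8.01 to 10.71 in MYC-low tumours.

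By position, genes of chromosome 13, which carries MYC in the RefSeq gene table (assembly UU_Cfam_GSD_1.0), had the highest median difference of 39 chromosomes. This view was chosen after the gene values were seen and is a description. Over 288 chromosome 13 genes other than MYC the median was 0.10 (0.09 without samples 5 and 18), and 69.1% had a higher mean, against 49.3% of all genes. At an unadjusted p under 0.05, 28 of the 288 were higher (9.72%), against 2.23% of all genes. The next chromosome, 23, had a median of 0.06, and the lowest, 4, had -0.05. With the day of the array in the fit, over the 11 arrays with a known day, sample 5 not among them, the chromosome 13 median was 0.04.

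Among the 10 measured genes on each side of MYC, 18 of 20 had a higher mean in MYC-high tumours, with a median of 0.20 (0.26 without samples 5 and 18), and 5 were higher at an unadjusted p under 0.05, against 2.23% of all genes. TRMT12, a tRNA-modifying enzyme, was at 8.30, 8.87 and 9.63 in MYC-high tumours and at 7.59, 8.31 and 8.75 in MYC-low tumours (0.63 ± 0.22). TATDN1 differed by 0.46 ± 0.17, WASHC5, of the endosomal WASH complex, by 0.20 ± 0.08 and CYRIB by 0.28 ± 0.11. ADCY8, an adenylyl cyclase, differed by 0.20 ± 0.07. Its probeset was dim, at 5.48 to 5.78 in MYC-high and 5.23 to 5.54 in MYC-low tumours, below the lowest array median of 6.85. SQLE, squalene epoxidase of cholesterol synthesis, differed by 0.81 ± 0.61 (0.36 without sample 5 and 1.20 without sample 9) and the pseudokinase TRIB1 by 0.51 ± 0.27. UTP23, RRM2B and PPAT, named above, also lie on chromosome 13.

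The chromosome 13 level of each tumour, taken as the mean of its genes relative to all genes, was uneven within the MYC-high group. It was -0.10, 0.10 and 0.26 in MYC-high tumours (lowest, median, highest) and -0.12, -0.08 and 0.09 in MYC-low tumours. 4 of the 7 MYC-high tumours, samples 1, 9, 16 and 22, lay above every MYC-low tumour, and the other 3, samples 10, 11 and 25, lay among them. Sample 10 had the most MYC of all tumours and a chromosome 13 level of -0.04.

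**Figure D5:**
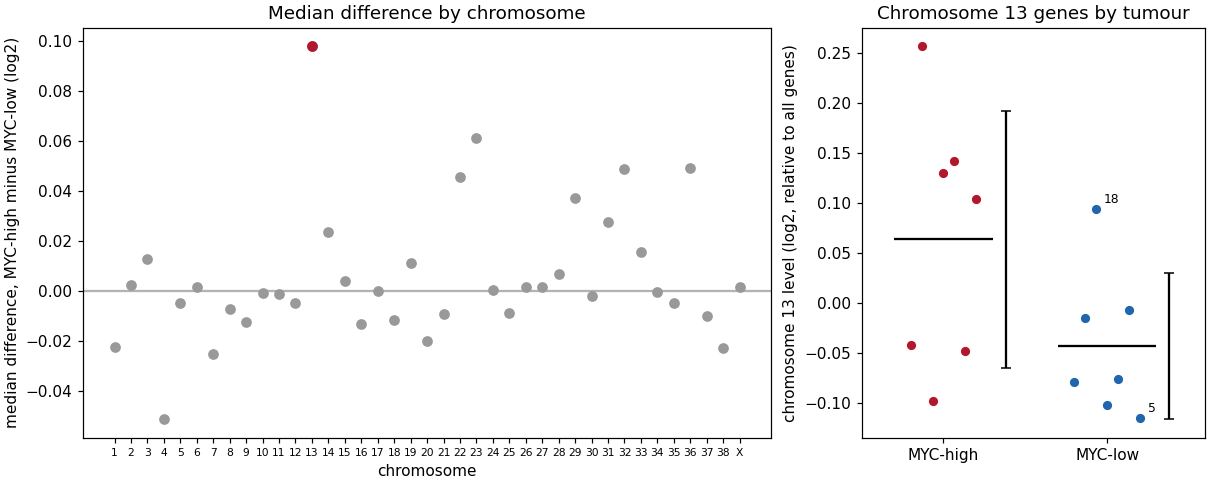
Left, median difference between MYC-high and MYC-low tumours (log2, vertical axis) of the genes of each chromosome, with chromosome 13 in red at 0.10. Right, mean level of chromosome 13 genes relative to all genes (log2) in each tumour of the 2 groups, with lines at the mean, bars of 1 SD and samples 5 and 18 numbered. 4 MYC-high tumours lie above all MYC-low tumours.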

How the data were processed

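Gene expression was measured on 33 arrays. The deposited values were log2 intensities that the authors made with RMA in Affymetrix Expression Console, with Partek also named in the submitters' processing notes. They ran from 2.20 to 15.49 over 43035 probesets, and array medians were 6.85 to 6.97. All 33 sample columns were read, and 0 were left unused. The platform table paired 29264 probesets with a single symbol, 439 with more than 1 (not named) and listed none for 13332. For each of 15115 genes the brightest probeset, averaged across arrays, stood for the gene.

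The 23 DLBCL arrays were ranked by MYC (1 probeset), and the first 7 were compared with the last 7 by limma 3.58.1 in R 4.3.3 on all probesets, with Benjamini-Hochberg adjustment and a threshold of 0.05. RIN and age were compared by exact permutation and relapse by Fisher's exact test (scipy 1.17.1). The groups, the gene lists and the choice of comparison were made with earlier results of these data known. Named genes were the measured MYC partners, up to 12 genes in each direction past the threshold or, where fewer passed, the 8 of smallest p, and up to 4 genes of each list by smallest p. Symbols that are only a locus number were not named. Genes picked outside this rule were NCL, DUSP13, the named neighbours of MYC on chromosome 13, and the markers MS4A1, CD79A, CD79B, MPO and PAX5. Samples were separate biopsies, so that the SD holds biological and technical spread together. The number of arrays limits the precision. The fit was tested on simulated data.

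Alternatives were a fit of all 23 tumours in 3 groups, MYC as a continuous covariate, RIN, previous chemotherapy or array day as covariates, naive tumours alone, leaving out samples 5 and 18 or each array in turn, leaving out probesets under the 25th percentile, other scalings and a mean-dependent prior. The array days came from array names in the paper's supplement, whose numbers were assumed to be the sample numbers, and sample 5, listed with 2 days, was taken as unknown. Day-adjusted values rest on that assumption. They also leave out samples 5, 13 and 16, whose day was unknown. The arrays with a known day were not fitted without day, so the effect of day cannot be told from that of leaving these samples out. The chromosome view and the continuous fits without samples 5 and 18 or without sample 12 were chosen after seeing the data. Samples 5 and 18 were themselves picked by their values in these data, also for the main fit without them. The array files name no genome build, so no coordinates are given.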

Additional observations from a re-analysis of the deposited data

Results flagged for a closer look

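Over 208 checks of a group of 7 tumours (33 lists and 71 genes in both groups), 20 had 1 sample far from the other 6, and chance flags about 1 in 20. Sample 9, the relapsed MYC-high tumour, was lowest of its group for the translation factors (12.70), WDR74 (9.86), NCL (12.93), AURKB (10.23) and SQLE (8.46), and highest for the erythroid markers (6.15). Sample 22 was lowest among MYC-high tumours for the interferon response (8.35, against a median of 10.48 in the others). KAT2A was highest in sample 16 (10.18), ODC1 in sample 1 (13.85) and CD8B, a chain of the CD8 receptor, in sample 25 (8.24).

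In the MYC-low group, sample 5 was lowest for B cell markers (8.42, against a median of 10.83 in the others), MBTPS2 (7.58), MXI1 (6.33) and UTP23 (10.95). Sample 18 was lowest for the MYC partners (8.80) and highest for the immediate early genes (9.19, against a median of 7.82) and FTH1 (9.62). Sample 21 was lowest for stroma and matrix genes (8.97) and FN1 (10.92), and highest for CCND1 (11.02). The causes were not tested.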

How the results depend on the processing

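The counts of 0 probesets in each direction held under all 13 other settings and when each of the 14 arrays was left out. None of the 71 genes examined passed the threshold in any of them, and 5 changed sign in at least 1. With naive tumours alone MAX was at -0.030 and ODC1 at -5.8e-05. Without samples 5 and 18 MYCN was at 0.30 and NCL at -0.0084, and MYCN was at 0.19 in the continuous fit without them. MYCN ran from -0.83 to 0.083 when 1 array was left out. CD8B was at 0.14 with array day in the fit. The RIN difference was -0.074 without samples 5 and 18 and -0.23 in naive tumours, and -0.081 to 0.15 when 1 array was left out. The age difference was 0.77 years without samples 5 and 18, and -1.22 to 0.55 years when 1 array was left out. The cause was not tested.

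Of 33 list medians, 12 changed sign without samples 5 and 18. The fit with array day also left out samples 5, 13 and 16, and its 11 arrays were not fitted without day. With array day in the fit, over 11 arrays, the median was 0.11 for MYC targets, 0.15 for ribosome assembly, -0.33 for cytotoxic and NK cells, -0.03 for macrophages, 0.06 for B cells, -0.63 for stroma and matrix and 0.05 for T cells, which turned sign. Ranking by the mean of all MYC probesets gave the same groups, since there is 1, and leaving out sample 12, the second array of 1 dog, left them unaltered since it lies between the groups. No paired analysis was possible because the MYC-high and MYC-low arrays came from different dogs.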
